A study of Mus musculus with 18 samples.

Results

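Expression of 52 genes of the WNT pathway was followed in 2 kinds of endothelial cell of mouse embryos, lymphatic (LEC) and blood vascular (BEC). The 52 genes were taken by symbol from 19938 genes with a named row on the array, using the brightest row of each gene. They are 19 WNT ligands, 4 R-spondins, 10 Frizzled receptors, the 2 co-receptors Lrp5 and Lrp6, 9 secreted inhibitors (Dkk1 to Dkk4, Sfrp1, Sfrp2, Sfrp4, Sfrp5 and Wif1), 5 membrane or intracellular inhibitors (Apcdd1, Axin1, Axin2, Nkd1 and Nkd2) and 3 TCF/LEF transcription factors (Lef1, Tcf7l1 and Tcf7l2). Tcf7, another TCF/LEF gene, had no row with a single symbol, and was not analysed here. LEC at embryonic days E14.5, E16.5 and E18.5 and BEC at the same 3 ages make 6 groups, each with 3 arrays that the labels call biological replicates. The series' design text says that LEC and BEC samples of 3 litters match at each age. The sources used here name no strain, genotype or organ of origin, and the labels give no growth or treatment of the cells. The isolation is described in them only through an earlier publication, which was not consulted.

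WNT ligands are secreted proteins that bind a Frizzled receptor together with the co-receptor Lrp5 or Lrp6. In the best known branch of the pathway this halts a destruction complex, built on Axin, that otherwise removes beta-catenin, and beta-catenin then acts in the nucleus through TCF/LEF factors. R-spondins bind Lgr receptors and slow the removal of Frizzled receptors by the ligases Rnf43 and Znrf3. Dkk1, Dkk2 and Dkk4 act on the LRP co-receptors, Sfrp proteins and Wif1 bind the ligands, Apcdd1 acts at the cell membrane, and the Naked proteins Nkd1 and Nkd2 act on Dishevelled inside the cell. In mice the pathway is known for its part in brain vessel and retinal vessel growth, where Fzd4 receives Norrin and WNT7 ligands reach endothelium, and for the formation of lymphatic valves.

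Promoter windows of 250 bases before an annotated start, in the orientation of the gene, were found for 34 of the 52 genes in the RefSeq promoter table (build GRCm38.p6), in 41 windows, and 18 genes had none in it, among them Apcdd1, Dkk3, Fzd6 and Rspo3. The windows of Fzd4, Dkk2 and Nkd1 are shown because these genes are among the 7 that passed with a size of at least 1 (log2) in LEC against BEC over the 3 ages, between E18.5 and E14.5, or in the difference of these age changes, and the window of Dkk1 is shown because it holds the motif that was searched. The window of Fzd4 is at chr7:89404116-89404365, plus strand, Dkk2 at chr3:132085042-132085291, plus strand, Nkd1 at chr8:88527383-88527632, plus strand and Dkk1 at chr19:30549497-30549746, minus strand. The window of Nkd1 belongs to another annotated start than the outermost one of the gene. Capitals mark a match to the TCF/LEF core, CTTTGAA or CTTTGAT, searched on both strands.
Fzd4: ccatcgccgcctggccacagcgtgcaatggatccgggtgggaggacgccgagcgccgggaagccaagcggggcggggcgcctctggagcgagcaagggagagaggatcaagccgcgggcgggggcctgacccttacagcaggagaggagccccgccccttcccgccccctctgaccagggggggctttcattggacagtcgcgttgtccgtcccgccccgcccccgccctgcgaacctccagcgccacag
Dkk2: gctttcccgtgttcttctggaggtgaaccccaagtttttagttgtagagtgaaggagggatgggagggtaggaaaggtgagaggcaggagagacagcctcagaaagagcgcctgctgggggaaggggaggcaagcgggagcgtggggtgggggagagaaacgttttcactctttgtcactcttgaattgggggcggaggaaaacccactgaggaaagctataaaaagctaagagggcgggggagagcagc
Nkd1: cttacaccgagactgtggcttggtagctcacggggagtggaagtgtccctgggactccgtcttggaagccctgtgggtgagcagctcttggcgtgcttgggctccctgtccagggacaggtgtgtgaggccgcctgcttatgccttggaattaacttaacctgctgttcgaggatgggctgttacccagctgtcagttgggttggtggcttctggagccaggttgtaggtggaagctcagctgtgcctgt
Dkk1: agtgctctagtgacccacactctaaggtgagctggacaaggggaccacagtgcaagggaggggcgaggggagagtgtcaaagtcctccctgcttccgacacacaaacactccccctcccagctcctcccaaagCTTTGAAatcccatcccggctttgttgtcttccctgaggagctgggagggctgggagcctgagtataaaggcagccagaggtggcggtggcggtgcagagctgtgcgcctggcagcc
The core was found in 3 of the 41 windows, in those of Dkk1, Wnt5b and Wnt11, at 117, 71 and 51 bases before the start. Over all 32851 windows of the table, 7.48% held it. None of those 3 genes passed the test in LEC against BEC or between E18.5 and E14.5, and the windows printed for Fzd4, Dkk2 and Nkd1 do not have these letters.

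Values are log2 RMA intensities, so that a difference of 1 is a 2-fold difference. Differences are LEC minus BEC, or the later age minus the earlier, with limma standard errors over groups of 3 arrays, and a gene passed the test at an adjusted p under 0.05. A group mean under 4.57 was called dim, the 95th percentile of 1210 rows of olfactory and vomeronasal receptor genes. No gene was removed for being dim. Precision is limited by having 3 arrays in a group. Of the 52 genes, 41 were above this bound in all 6 groups, 7 in some, and Rspo2, Sfrp4, Wnt1 and Wnt8b in none.

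Arrays of a group correlated over the tested genes at 0.986 to 0.990 at E18.5 and at 0.993 to 0.996 at the earlier ages. The fit shares 1 estimate of the spread among the 6 groups, so that the standard errors do not reflect this. The interquartile range of the values was narrower on the E18.5 arrays (3.18 to 3.36) than on the earlier ones (3.40 to 3.64). The mean of 6 LEC markers was 10.84 to 10.93, 11.15 to 11.23 and 11.22 to 11.45 on LEC arrays in order of age, against 8.09 to 8.44, 7.001 to 7.10 and 6.38 to 6.69 on BEC arrays. For 7 BEC markers it was 6.34 to 7.004, 7.12 to 7.35 and 7.43 to 7.91 on LEC arrays, against 10.62 to 10.67, 10.89 to 10.98 and 10.83 to 10.998 on BEC arrays. All of these markers passed the test in the direction of the label at every age. Markers of other cells differed as well over the 3 ages, with 12 of 12 macrophage, 7 of 7 mast cell and 11 of 12 keratinocyte genes higher in LEC, 10 of 10 mural genes lower in LEC, and 1 higher and 3 lower of 10 fibroblast genes. Of 6 pan-endothelial, 6 neural and 5 erythroid genes, 4, 1 and 3 were lower in LEC and 0 were higher. The pan-endothelial list was at 10.22 to 10.25, 10.51 to 10.61 and 10.70 to 10.95 on LEC arrays in order of age. On BEC arrays it was at 10.96 to 11.02, 11.16 to 11.24 and 11.34 to 11.43. In RNA of a whole isolate, less RNA per cell and fewer cells of a type cannot be told apart.

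**Figure D1:**
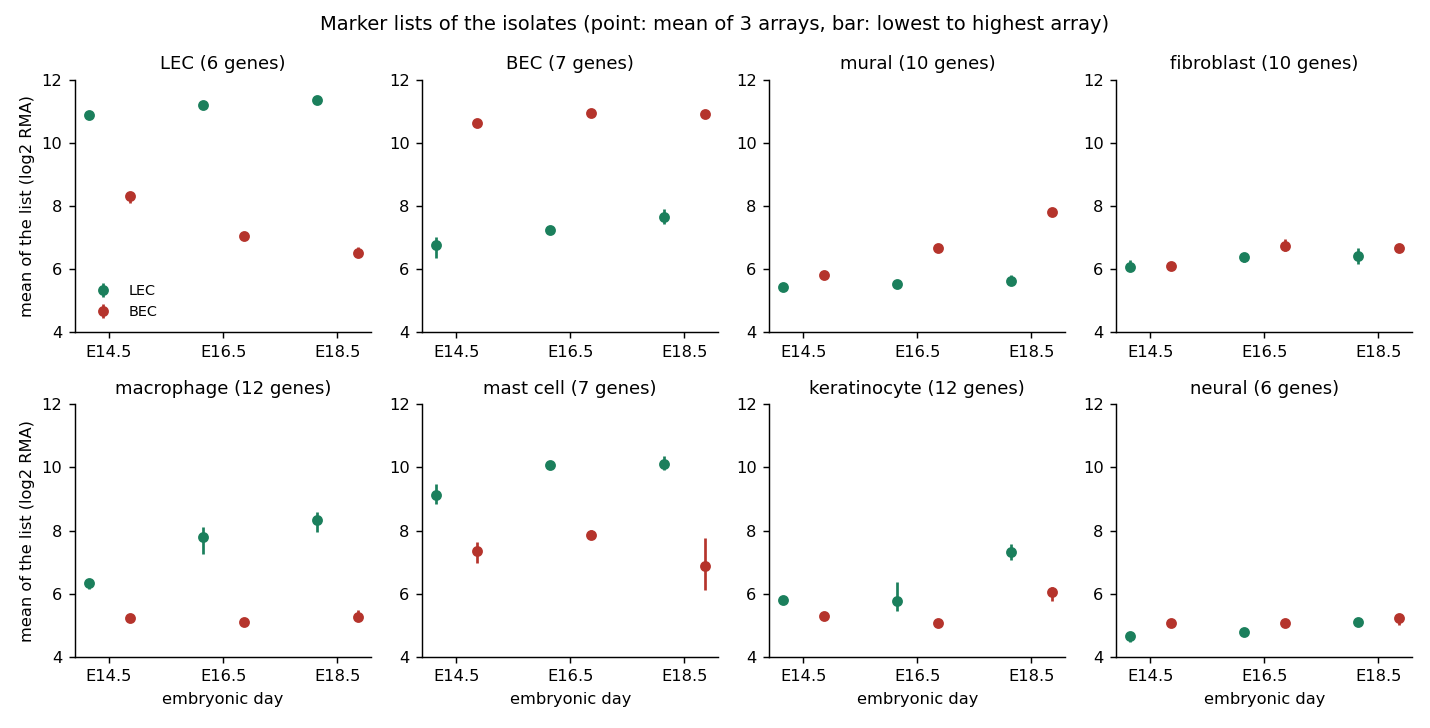
Mean log2 RMA level of 8 marker lists (y axis) at each embryonic day (x axis), with LEC left and BEC right. Points are means of 3 arrays and bars run from the lowest to the highest array, and the mural list on BEC arrays (7.75 to 7.85 at E18.5) and the macrophage and keratinocyte lists on LEC arrays (7.95 to 8.59 and 7.07 to 7.58 at E18.5) were highest at E18.5.

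Apcdd1, Fzd4 and Dkk2 were lower and Dkk3 was higher in LEC than in BEC by at least 1 (log2) over the 3 ages. Of the 19 ligands, 1 passed. Over the 3 ages, 7 of the 52 genes were higher in LEC (Fzd6, Fzd7, Rspo3, Wnt5a, Nkd1, Dkk3 and Sfrp2) and 12 were lower (Fzd4, Fzd9, Lrp5, Lrp6, Lef1, Tcf7l1, Tcf7l2, Apcdd1, Axin2, Nkd2, Dkk2 and Sfrp1). That is 36.5% of them, against 37.1% of all genes tested, of which 18.2% were higher and 19.0% lower, so that the share is near the background. That background, here and below, includes the 24.7% of all genes that were dim in all 6 groups, while 4 of the 52 were. The median difference of the 52 genes was -0.05, against -0.02 over all genes.

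Counted by age, 3 were higher and 8 lower in LEC at E14.5 (21.2%, against 16.5% of all genes, 8.60% higher and 7.94% lower). At E16.5, 6 were higher and 11 lower (32.7%, against 25.2%, 13.0% higher and 12.2% lower). At E18.5, 6 were higher and 10 lower (30.8%, against 30.4%, 14.6% higher and 15.9% lower). Fzd7 was higher at all 3 ages, and Fzd4, Lrp5, Lef1, Tcf7l2, Apcdd1, Nkd2 and Dkk2 were lower at all 3. Another 7 genes passed at 2 ages and 6 at a single age, and 31 passed at none. The matching shares of all genes were not computed, so these tallies over ages have no background to be read against. Fzd3 and Wnt7a passed in opposite directions at different ages.

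**Figure D2:**
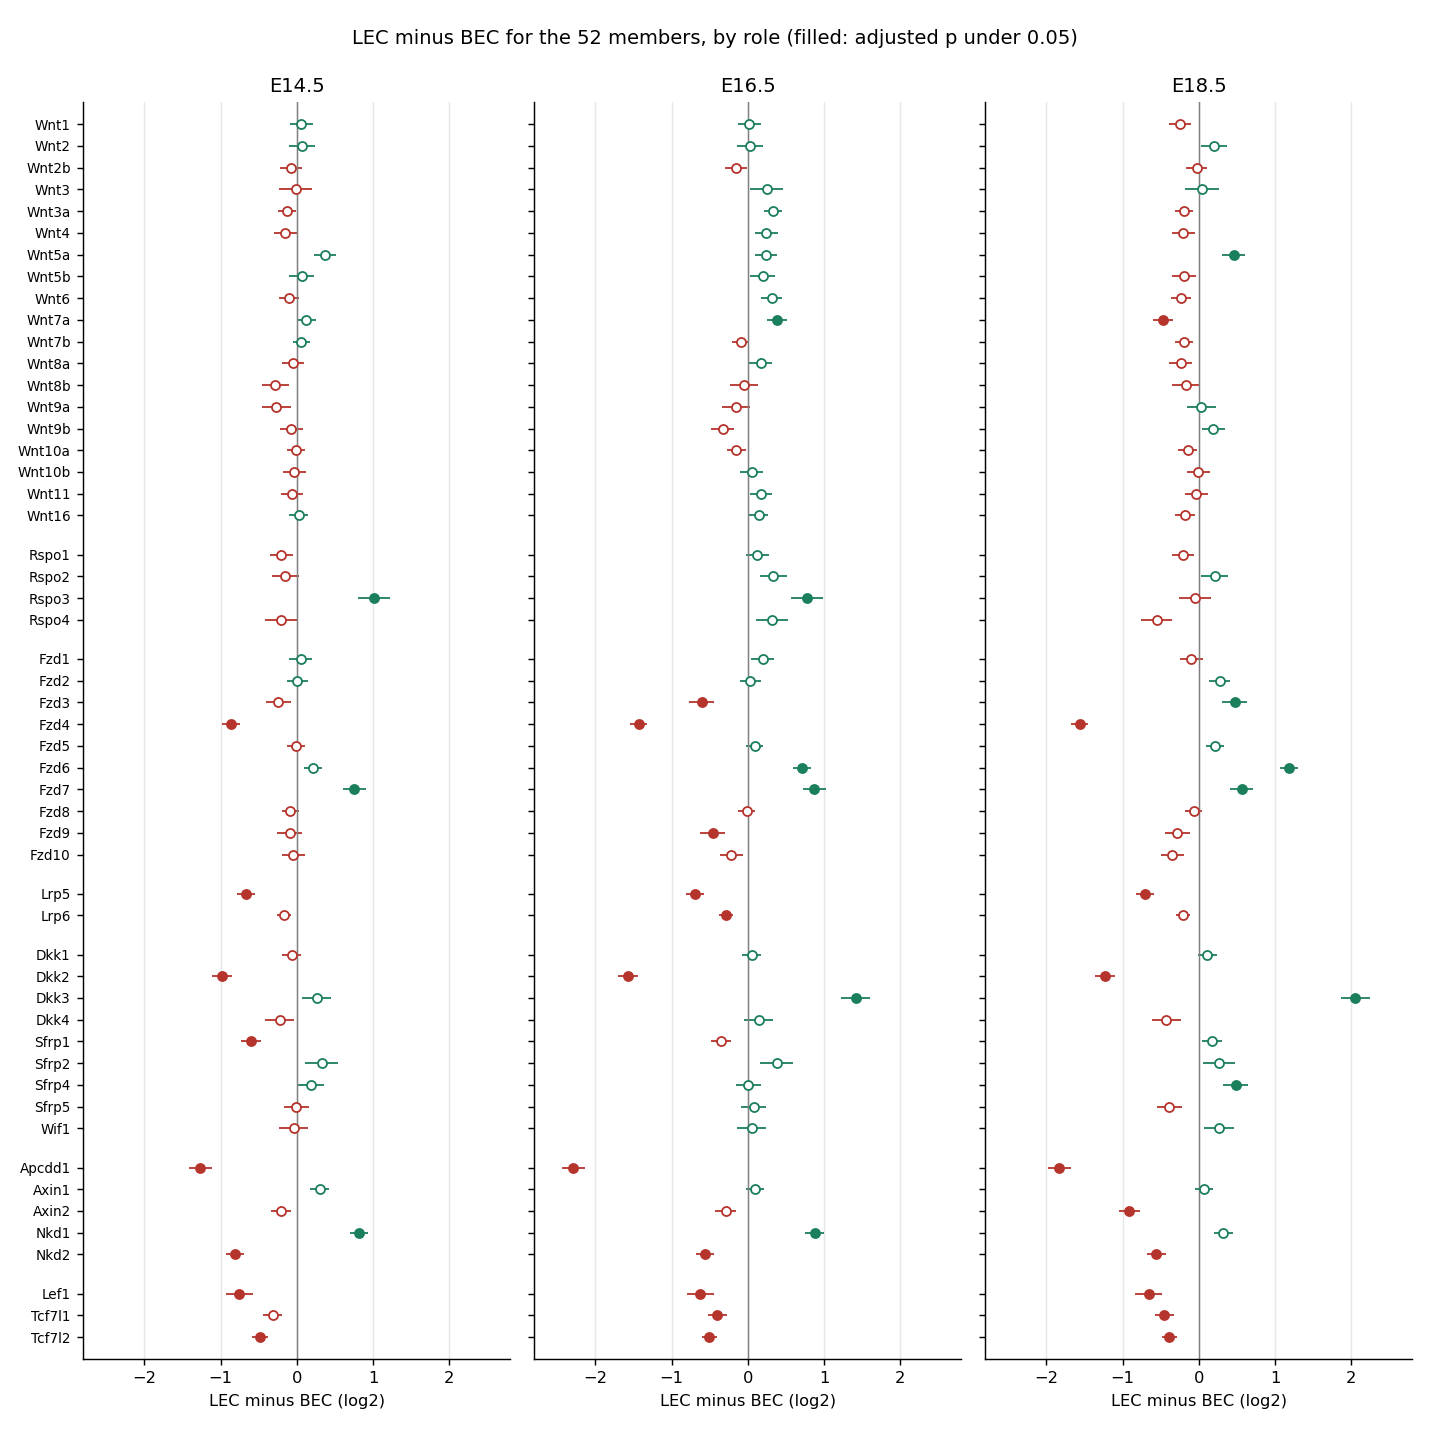
Difference LEC minus BEC (log2, x axis) for the 52 genes in order of role (y axis) in 3 panels, 1 for each age. Points are limma estimates and bars 1 SE, filled points passed at an adjusted p under 0.05, and green points are higher and red points lower in LEC. Ligands lie between -0.47 and 0.45, Fzd4, Lrp5, Dkk2, Apcdd1, Nkd2, Lef1 and Tcf7l2 lie to the left in every panel, and Dkk3 and Fzd6 lie farther to the right at the later ages.

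Between E18.5 and E14.5, 11 genes were higher and 6 lower at E18.5 in LEC (32.7%, against 40.9% of all genes, 19.7% higher and 21.2% lower). In BEC, 11 were higher and 4 lower (28.8%, against 30.6%, 13.3% higher and 17.3% lower). Fzd6, Lrp6, Tcf7l1, Tcf7l2, Wnt5a, Apcdd1 and Dkk2 are among those higher with age in both cell types, and Fzd10 and Nkd1 among those lower in both. The age changes themselves differed between LEC and BEC for 6 genes (11.5%, against 8.85% of all genes, 5.02% in the direction of LEC and 3.83% in that of BEC). These were Dkk3, Fzd6 and Sfrp1, with the change more positive in LEC, and Fzd4, Axin2 and Rspo3, with the change more negative in LEC. Both age changes and the difference between them rest on the same 12 arrays.

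In steps, 3 genes were higher and 4 lower at E16.5 than at E14.5 in LEC (13.5%, against 13.8% of all genes), and 12 higher and 2 lower at E18.5 than at E16.5 (26.9%, against 34.4%). In BEC the counts were 2 and 5 for E16.5 against E14.5 (13.5%, against 9.76%) and 15 and 1 for E18.5 against E16.5 (30.8%, against 32.3%). The balance of higher and lower calls depends on the scaling of the arrays. With every array set to a common median, the share of higher genes among all genes that passed was 37.6% in place of 48.2% for E18.5 against E14.5 in LEC, and the pathway genes split into 8 higher and 8 lower. The same share was 26.6% in place of 46.3% for E18.5 against E16.5 in LEC (pathway genes 9 and 5), 30.5% in place of 49.1% for that step in BEC (9 and 2), and 66.4% in place of 52.2% for E16.5 against E14.5 in BEC (4 and 4). The median of all genes moved by at most 0.12 under that scaling, for E18.5 against E16.5 in LEC, and no gene of the 52 that passed changed direction in any alternative.

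**Figure D3:**
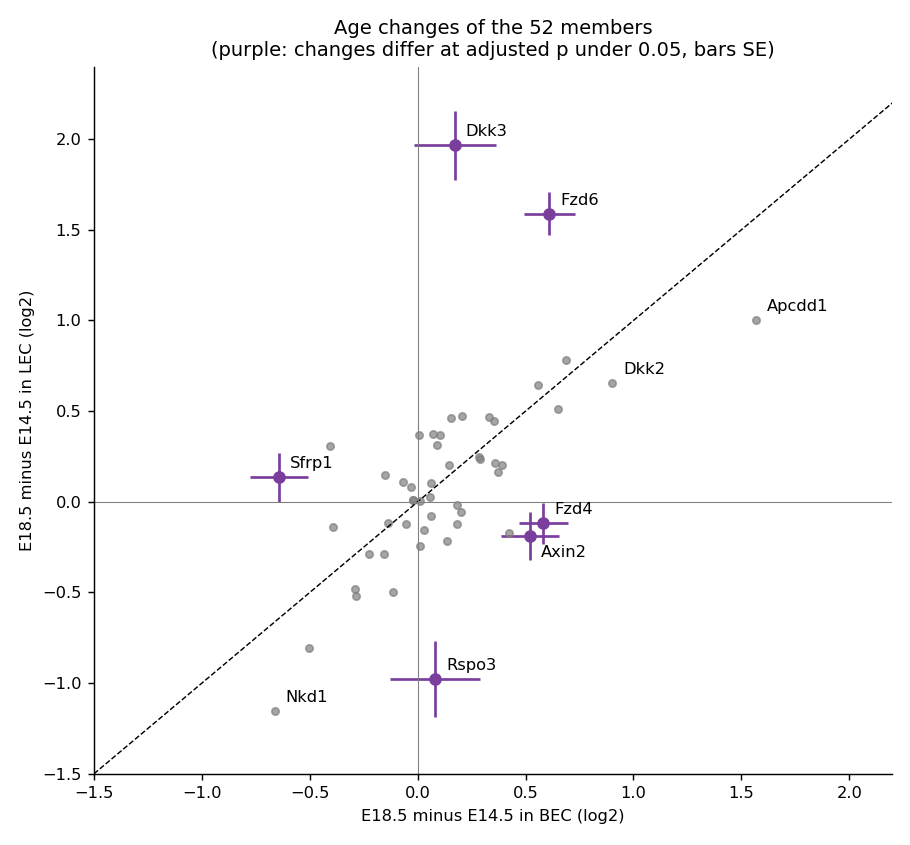
Change from E14.5 to E18.5 of the 52 genes in LEC (y axis, E18.5 minus E14.5, log2) against that in BEC (x axis, log2), with the line of equal change dashed. Purple points with SE bars are the 6 genes whose changes differed at an adjusted p under 0.05, and grey points are the other 46. Dkk3 and Fzd6 lie above the line and Rspo3, Fzd4 and Axin2 below it.

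Among the 19 ligands, differences between LEC and BEC over the 3 ages ran from -0.17 to 0.35, and Wnt5a alone passed. Wnt5a, a ligand known mostly for signalling that does not need beta-catenin, averaged 5.37 ± 0.08, 5.64 ± 0.16 and 6.01 ± 0.36 in LEC in order of age (SD, n = 3), against 5.002 ± 0.14, 5.40 ± 0.18 and 5.56 ± 0.01 in BEC. The difference was 0.35 ± 0.08 (adjusted p = 0.00246), and the level was higher at E18.5 than at E14.5 by 0.64 ± 0.15 (adjusted p = 0.00153) in LEC and 0.56 ± 0.15 (adjusted p = 0.00673) in BEC. At E18.5 alone the difference from BEC was 0.45 ± 0.15 (adjusted p = 0.0240), a call lost without LEC E18.5 replicates 2 or 3 or BEC E18.5 replicates 1, 2 or 3 (adjusted p of 0.0520 to 0.146). None of the 19 ligands passed at E14.5.

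Wnt7a, a ligand that acts on brain endothelium, was near the bound for dim genes, with means of 4.56 ± 0.19, 4.73 ± 0.14 and 4.39 ± 0.15 in LEC and 4.43 ± 0.23, 4.35 ± 0.13 and 4.86 ± 0.08 in BEC. It differed by 0.38 ± 0.13 (adjusted p = 0.0402) at E16.5 and by -0.47 ± 0.13 (adjusted p = 0.00960) at E18.5. The E16.5 call was lost without LEC E14.5 replicate 1, LEC E16.5 replicates 1 or 3 or BEC E16.5 replicates 2 or 3 (adjusted p of 0.0509 to 0.161), and the E18.5 call with array weights (adjusted p = 0.0786). Its age change in BEC was 0.42 ± 0.13 (adjusted p = 0.0187), lost without BEC E14.5 replicates 1 or 2 or BEC E18.5 replicate 2 (adjusted p of 0.0644 to 0.104), and the difference of its age changes was -0.60 ± 0.18 (adjusted p = 0.0519). Under quantile normalization the E16.5 and age results of Wnt7a did not pass (adjusted p = 0.0971 and 0.0656). Wnt2, a ligand of early lung development, was higher at E18.5 than at E14.5 in LEC by 0.47 ± 0.17 (adjusted p = 0.0344), lost without LEC E14.5 replicates 1 or 3 or LEC E18.5 replicate 3 (adjusted p of 0.0777 to 0.178). Wnt16 was higher with age in BEC by 0.37 ± 0.13 (adjusted p = 0.0343), lost without BEC E14.5 replicates 1 or 3 or BEC E18.5 replicate 2 (adjusted p of 0.0634 to 0.159). Both calls were lost with a common median, and neither gene was shown to differ in its age changes between LEC and BEC (adjusted p = 0.814 for Wnt2 and 0.587 for Wnt16).

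Wnt4 and Wnt9b, which act early in kidney and reproductive tract development, were lowest at E16.5. Wnt4 averaged 6.33 ± 0.20, 6.01 ± 0.35 and 6.56 ± 0.13 in LEC and 6.48 ± 0.10, 5.76 ± 0.04 and 6.77 ± 0.18 in BEC. In BEC it differed by -0.71 ± 0.15 (adjusted p = 0.00531) at E16.5 against E14.5 and by 1.00 ± 0.15 (adjusted p = 8.33e-05) at E18.5 against E16.5, and in LEC the later step was 0.56 ± 0.15 (adjusted p = 0.00741). The change in LEC did not pass without LEC E16.5 replicate 1 (0.43, adjusted p = 0.0512) or with the mean of the 2 rows of Wnt4 (adjusted p = 0.0605). Wnt9b averaged 5.65 ± 0.10, 5.03 ± 0.11 and 6.02 ± 0.31 in LEC and 5.72 ± 0.06, 5.36 ± 0.13 and 5.83 ± 0.29 in BEC, and differed in LEC by -0.62 ± 0.15 (adjusted p = 0.00820) and then 0.99 ± 0.15 (adjusted p = 6.96e-05) in the same steps. Neither gene passed between LEC and BEC at any age. Wnt1 and Wnt8b were dim in all 6 groups, and Wnt3, Wnt7a and Wnt16 in some.

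**Figure D4:**
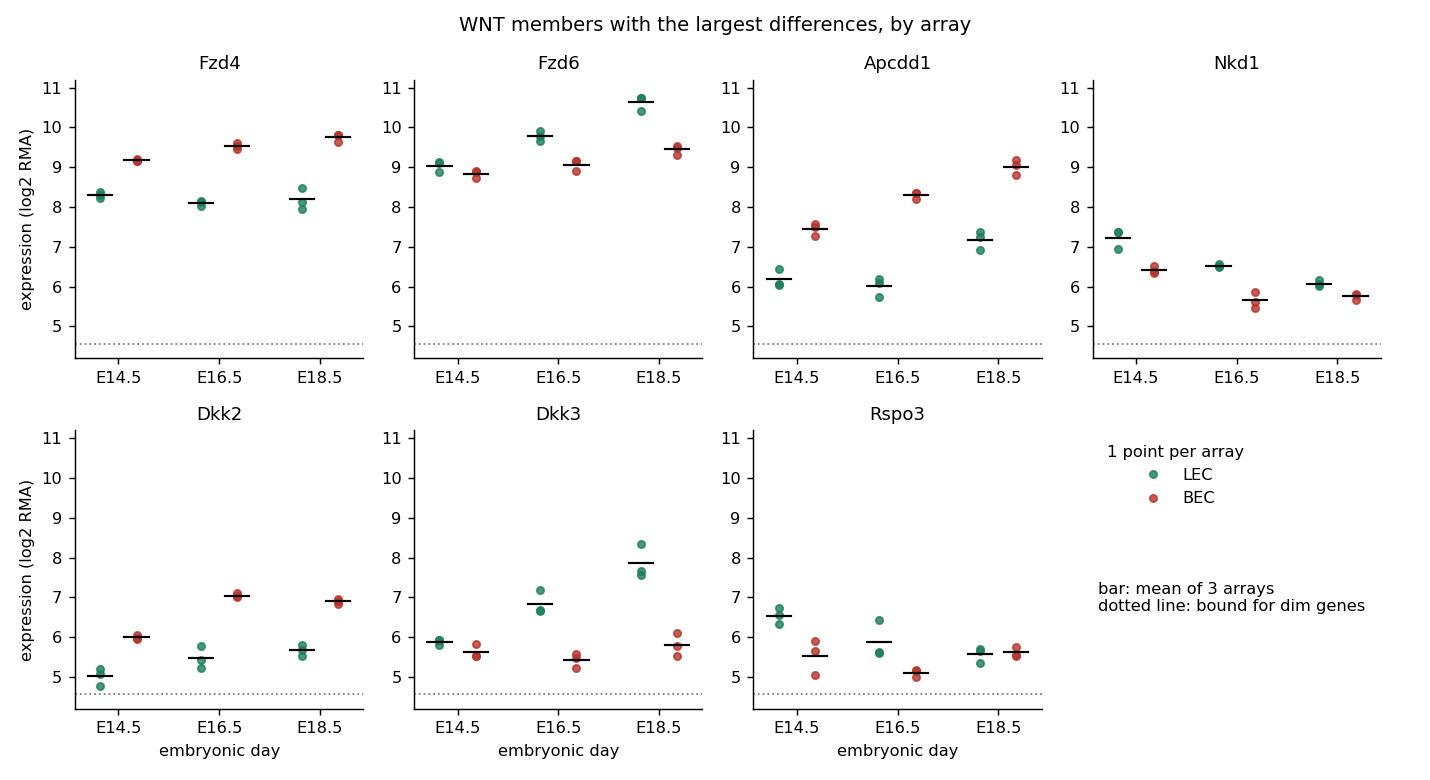
Level (log2 RMA, y axis) of the 7 genes with a size of at least 1 in LEC against BEC over the 3 ages, between E18.5 and E14.5, or in the difference of these age changes, on each array by embryonic day (x axis), with LEC left and BEC right, bars for the mean of 3 arrays and a dotted line at the bound of 4.57. LEC and BEC points of Fzd4, Apcdd1 and Dkk2 do not overlap at any age, those of Fzd6 and Dkk3 separate at E16.5 and E18.5, and those of Rspo3 are apart at E14.5 and E16.5.

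Of the 4 R-spondins, Rspo3 differed. Rspo3, a ligand of Lgr receptors that has a role in vessel growth in mice, was 6.74, 6.33 and 6.56 (E14.5), 5.62, 6.44 and 5.61 (E16.5), and 5.69, 5.65 and 5.36 (E18.5) on the 3 LEC arrays. On the BEC arrays it was 5.90, 5.06 and 5.66 (E14.5), 5.005, 5.17 and 5.16 (E16.5), and 5.76, 5.56 and 5.53 (E18.5). LEC arrays were above BEC arrays at E14.5 and E16.5 without overlap, and the groups overlapped at E18.5. The difference was 1.01 ± 0.21 (adjusted p = 0.00143) at E14.5, 0.78 ± 0.21 (adjusted p = 0.00827) at E16.5 and -0.05 ± 0.21 (adjusted p = 0.886) at E18.5.

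Rspo3 fell in LEC between E14.5 and E18.5 (-0.98 ± 0.21, adjusted p = 0.000862), while its age change in BEC was 0.08 ± 0.21 (adjusted p = 0.812). The difference of the age changes was -1.06 ± 0.29 (adjusted p = 0.0292). That call was lost without any 1 of LEC E14.5 replicate 1, LEC E14.5 replicate 3, LEC E18.5 replicate 3, BEC E14.5 replicate 2 or BEC E18.5 replicate 1, with adjusted p values of 0.0597 to 0.0825. It was also lost without moderation of the variances (adjusted p = 0.0785) and with array weights (adjusted p = 0.0710). The E16.5 difference was lost without LEC E16.5 replicate 2 (0.50, adjusted p = 0.0653), the highest of its group. Rspo1, Rspo2 and Rspo4 passed in none of the comparisons of LEC with BEC, with differences of -0.55 to 0.34 at single ages, nor between E18.5 and E14.5.

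Among the 10 Frizzled receptors, Fzd6 and Fzd7 were higher and Fzd4 and Fzd9 lower in LEC over the 3 ages. Fzd4, the receptor of Norrin, was 8.24, 8.38 and 8.31 (E14.5), 8.13, 8.15 and 8.02 (E16.5), and 7.96, 8.48 and 8.12 (E18.5) on LEC arrays. On BEC arrays it was 9.16, 9.20 and 9.16 (E14.5), 9.53, 9.46 and 9.60 (E16.5), and 9.65, 9.82 and 9.80 (E18.5). Every LEC array was below every BEC array, whatever the age. The difference was -0.86 ± 0.11 (adjusted p = 1.06e-05) at E14.5, -1.43 ± 0.11 (adjusted p = 7.95e-09) at E16.5 and -1.56 ± 0.11 (adjusted p = 2.18e-09) at E18.5.

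Fzd4 was higher at E18.5 than at E14.5 in BEC (0.58 ± 0.11, adjusted p = 0.000582), with no overlap of the arrays. In LEC the change was -0.12 ± 0.11 (adjusted p = 0.438), and the difference of the age changes was -0.70 ± 0.16 (adjusted p = 0.00843). Mural markers moved on the same BEC arrays, with 10 of 10 higher at E18.5 than at E14.5 and a list mean of 7.75 to 7.85 at E18.5, against 5.76 to 5.85 at E14.5. Rgs5 and Des, 2 of the mural genes, were dim in LEC at E14.5. On LEC arrays the mural list was at 5.51 to 5.82 and 5.39 to 5.50 at these ages. The LEC marker list also moved on BEC arrays, with 6.38 to 6.69 at E18.5, against 8.09 to 8.44 at E14.5. The part of both lists in the Fzd4 result was not tested.

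Fzd6, a receptor known in mice for the orientation of hair follicles through planar cell polarity, was 8.89, 9.14 and 9.10 (E14.5), 9.78, 9.66 and 9.91 (E16.5), and 10.42, 10.74 and 10.73 (E18.5) on LEC arrays. On BEC arrays it was 8.88, 8.74 and 8.90 (E14.5), 9.15, 8.90 and 9.16 (E16.5), and 9.49, 9.31 and 9.54 (E18.5). The groups overlapped at E14.5, and LEC was above BEC without overlap at both later ages. The difference was 0.21 ± 0.12 (adjusted p = 0.313) at E14.5, 0.71 ± 0.12 (adjusted p = 9.45e-05) at E16.5 and 1.19 ± 0.12 (adjusted p = 1.60e-07) at E18.5. Fzd6 was higher at E18.5 than at E14.5 in LEC by 1.59 ± 0.12 (adjusted p = 6.11e-09) and in BEC by 0.61 ± 0.12 (adjusted p = 0.000514), and these changes differed by 0.98 ± 0.17 (adjusted p = 0.000653).

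Macrophage markers at both later ages, and keratinocyte markers at E18.5, were also mostly higher on LEC arrays than at E14.5. Of 12 keratinocyte genes, 9 were higher at E18.5 than at E14.5 in LEC, with a list mean of 7.07 to 7.58 at E18.5 against 5.71 to 5.91 at E14.5, and 7 were higher in BEC, with 5.77 to 6.22 against 5.22 to 5.34. Krt5, a keratin of basal keratinocytes, averaged 9.96 in LEC at E18.5, against 6.95 at E14.5. At E16.5 the list was at 5.44 to 6.36 on LEC arrays, 1 of them above all E14.5 arrays, and none of the 12 genes passed against E14.5. Fzd6 was higher by 0.74 ± 0.12 (adjusted p = 0.000295) in that step. Of 12 macrophage genes, 11 were higher in LEC at E18.5 than at E14.5 (7.95 to 8.59 against 6.16 to 6.44) and 9 at E16.5 (7.24 to 8.12). The remaining gene at E18.5, Cx3cr1, was lower (-1.16 ± 0.18, adjusted p = 3.68e-05). The part of both lists in the Fzd6 result was not tested.

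Fzd7, a receptor for many WNT ligands, averaged 7.28 ± 0.28, 7.36 ± 0.07 and 7.48 ± 0.21 in LEC at the 3 ages (SD, n = 3), against 6.53 ± 0.18, 6.49 ± 0.19 and 6.92 ± 0.19 in BEC. It was higher in LEC by 0.75 ± 0.15 (adjusted p = 0.00113), 0.87 ± 0.15 (adjusted p = 0.000171) and 0.56 ± 0.15 (adjusted p = 0.00750), without overlap of the arrays at any age. With array weights the E18.5 call was lost (adjusted p = 0.0503). Fzd3, a planar cell polarity receptor, was lower in LEC at E16.5 (-0.61 ± 0.16, adjusted p = 0.00907), whereas at E18.5 it was higher there (0.47 ± 0.16, adjusted p = 0.0363), and the difference of its age changes was 0.72 ± 0.23 (adjusted p = 0.0637). Its E16.5 call was lost without LEC E16.5 replicate 1 (-0.51, adjusted p = 0.0535) or BEC E16.5 replicate 2 (-0.44, adjusted p = 0.0704), and its E18.5 call without LEC E18.5 replicates 1 or 3 or BEC E18.5 replicates 1 or 3 (adjusted p of 0.0512 to 0.169).

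Fzd9 was lower in LEC over the 3 ages (-0.28 ± 0.10, adjusted p = 0.0261), a call lost without LEC E16.5 replicate 1, LEC E18.5 replicate 2, BEC E16.5 replicate 3 or BEC E18.5 replicate 3 (adjusted p of 0.0507 to 0.063). It also fell with age in LEC (-0.48 ± 0.16, adjusted p = 0.0257), which was lost without LEC E14.5 replicates 2 or 3 or LEC E18.5 replicate 2 (adjusted p of 0.0666 to 0.165). Fzd10 fell between E14.5 and E18.5 in LEC (-0.81 ± 0.15, adjusted p = 0.000210) as well as BEC (-0.50 ± 0.15, adjusted p = 0.0135), with the call in BEC lost without BEC E14.5 replicate 2 (-0.46, adjusted p = 0.0547) or BEC E18.5 replicate 1 (-0.34, adjusted p = 0.0946). Fzd2 and Fzd5 were higher at E18.5 than at E14.5 in LEC by 0.47 ± 0.13 (adjusted p = 0.00836) and 0.31 ± 0.11 (adjusted p = 0.0360). The Fzd2 call was lost without LEC E14.5 replicate 1 (0.35, adjusted p = 0.0634) or LEC E18.5 replicate 3 (0.37, adjusted p = 0.0508), and the Fzd5 call without LEC E14.5 replicates 2 or 3 or LEC E18.5 replicates 1 or 3 (adjusted p of 0.0980 to 0.143) or with a common median (adjusted p = 0.134). Fzd1 and Fzd8 passed in no comparison of LEC with BEC and not between E18.5 and E14.5.

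Both co-receptors were lower in LEC over the 3 ages. The pan-endothelial list was also lower on LEC arrays at each age, and its part in these results was not tested. Lrp5 averaged 8.60 ± 0.08, 8.71 ± 0.16 and 8.62 ± 0.10 in LEC (SD, n = 3), against 9.27 ± 0.06, 9.40 ± 0.04 and 9.33 ± 0.24 in BEC. All LEC arrays were below all BEC arrays, and the difference was -0.67 ± 0.12 (adjusted p = 0.000254), -0.70 ± 0.12 (adjusted p = 0.000112) and -0.70 ± 0.12 (adjusted p = 9.73e-05) in order of age. Its age change was 0.03 ± 0.12 (adjusted p = 0.880) in LEC and 0.06 ± 0.12 (adjusted p = 0.753) in BEC. Lrp6 was lower in LEC over the 3 ages (-0.22 ± 0.05, adjusted p = 0.00213), and higher at E18.5 than at E14.5 by 0.25 ± 0.09 (adjusted p = 0.0400) in LEC and 0.28 ± 0.09 (adjusted p = 0.0248) in BEC. A common median ended these age calls of Lrp6, with adjusted p = 0.213 in LEC and 0.0770 in BEC. The call in LEC was lost without LEC E14.5 replicates 1, 2 or 3 or LEC E18.5 replicates 2 or 3 (adjusted p of 0.0566 to 0.136), and the call in BEC without BEC E14.5 replicates 1 or 3 or BEC E18.5 replicates 1 or 3 (adjusted p of 0.0595 to 0.0967).

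Among the 9 secreted inhibitors, Dkk3 and Sfrp2 were higher and Dkk2 and Sfrp1 lower in LEC over the 3 ages. Dkk2, which binds LRP co-receptors, was 5.19, 5.09 and 4.76 (E14.5), 5.78, 5.22 and 5.42 (E16.5), and 5.69, 5.53 and 5.79 (E18.5) on LEC arrays. On BEC arrays it was 6.05, 5.99 and 5.96 (E14.5), 7.0, 7.10 and 7.03 (E16.5), and 6.83, 6.92 and 6.95 (E18.5). Every LEC array was below every BEC array. The difference was -0.98 ± 0.13 (adjusted p = 1.39e-05) at E14.5, -1.57 ± 0.13 (adjusted p = 1.71e-08) at E16.5 and -1.23 ± 0.13 (adjusted p = 4.57e-07) at E18.5.

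Dkk2 was higher at E18.5 than at E14.5 in both cell types, by 0.65 ± 0.13 (adjusted p = 0.000511) in LEC and 0.90 ± 0.13 (adjusted p = 3.20e-05) in BEC, and the difference of these changes was -0.25 ± 0.19 (adjusted p = 0.510). In BEC the rise was between E14.5 and E16.5 (1.05 ± 0.13, adjusted p = 7.61e-05), with -0.15 ± 0.13 (adjusted p = 0.397) for E18.5 against E16.5. Of the 10 mural markers, 5 were higher in BEC in the earlier step and 9 in the later. On LEC arrays the BEC marker list was at 6.34 to 7.004 at E14.5 and 7.43 to 7.91 at E18.5. The part of both lists in the Dkk2 result was not tested.

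Dkk3, a divergent family member that is not known to block LRP co-receptors, was 5.80, 5.94 and 5.93 (E14.5), 6.66, 6.68 and 7.18 (E16.5), and 7.66, 8.34 and 7.57 (E18.5) on LEC arrays. On BEC arrays it was 5.53, 5.53 and 5.84 (E14.5), 5.22, 5.58 and 5.48 (E16.5), and 6.10, 5.53 and 5.79 (E18.5). The groups overlapped at E14.5, and at E16.5 and E18.5 all LEC arrays were above all BEC arrays. The difference was 0.26 ± 0.19 (adjusted p = 0.483) at E14.5, 1.41 ± 0.19 (adjusted p = 1.00e-05) at E16.5 and 2.05 ± 0.19 (adjusted p = 7.22e-08) at E18.5, where no other of the 52 genes had a higher one.

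Dkk3 was higher at E18.5 than at E14.5 in LEC by 1.97 ± 0.19 (adjusted p = 1.70e-07). In BEC the change was 0.17 ± 0.19 (adjusted p = 0.551), and the difference of the age changes was 1.79 ± 0.27 (adjusted p = 0.000233). In LEC it was higher at E16.5 than at E14.5 by 0.95 ± 0.19 (adjusted p = 0.00237), and at E18.5 than at E16.5 by 1.02 ± 0.19 (adjusted p = 0.000524). On LEC arrays the keratinocyte list was at 5.71 to 5.91 at E14.5, 5.44 to 6.36 at E16.5 and 7.07 to 7.58 at E18.5. The macrophage list was at 6.16 to 6.44, 7.24 to 8.12 and 7.95 to 8.59 on these arrays, and the part of both lists in the Dkk3 result was not tested.

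Sfrp1, which binds WNT ligands, averaged 5.19 ± 0.16, 5.01 ± 0.27 and 5.33 ± 0.18 in LEC at the 3 ages, against 5.80 ± 0.05, 5.36 ± 0.05 and 5.15 ± 0.17 in BEC (SD, n = 3). At E14.5 its level in LEC was lower (-0.60 ± 0.13, adjusted p = 0.00265), and the difference was 0.17 ± 0.13 (adjusted p = 0.358) at E18.5. It fell with age in BEC (-0.64 ± 0.13, adjusted p = 0.00102), with a change of 0.13 ± 0.13 (adjusted p = 0.458) in LEC and a difference between the changes of 0.78 ± 0.19 (adjusted p = 0.0126). Sfrp2 was higher in LEC over the 3 ages by 0.32 ± 0.12 (adjusted p = 0.0486), a call lost without LEC E14.5 replicates 1 or 2, LEC E16.5 replicates 1, 2 or 3, LEC E18.5 replicate 2, BEC E14.5 replicates 1, 2 or 3, BEC E16.5 replicates 2 or 3 or BEC E18.5 replicate 3 (adjusted p of 0.0552 to 0.107) and under quantile normalization (adjusted p = 0.10). Sfrp4, dim in all groups, was higher in LEC at E18.5 (0.48 ± 0.16, adjusted p = 0.0312), a call lost without LEC E18.5 replicates 1 or 2 or BEC E18.5 replicates 2 or 3 (adjusted p of 0.0656 to 0.154). Sfrp5, dim in LEC at E18.5, was lower there than at E14.5 (-0.50 ± 0.16, adjusted p = 0.0186), which was lost without LEC E14.5 replicates 2 or 3 or LEC E18.5 replicate 2 (adjusted p of 0.0532 to 0.119). Dkk1, Dkk4 and Wif1 passed in no comparison of LEC with BEC and not between E18.5 and E14.5.

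Apcdd1, a membrane inhibitor that is itself a target of the pathway, differed most of the 52 genes over the 3 ages. It was 6.43, 6.06 and 6.05 (E14.5), 6.09, 5.74 and 6.20 (E16.5), and 6.91, 7.37 and 7.25 (E18.5) on LEC arrays. On BEC arrays it was 7.27, 7.501 and 7.57 (E14.5), 8.20, 8.34 and 8.35 (E16.5), and 8.81, 9.18 and 9.04 (E18.5). LEC arrays were below BEC arrays of the same age without overlap, and in both cell types E18.5 arrays were above E14.5 arrays. The difference was -1.27 ± 0.15 (adjusted p = 3.06e-06) at E14.5, -2.29 ± 0.15 (adjusted p = 5.74e-10) at E16.5 and -1.83 ± 0.15 (adjusted p = 1.19e-08) at E18.5.

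In BEC, Apcdd1 was higher at E16.5 than at E14.5 by 0.85 ± 0.15 (adjusted p = 0.00139) and at E18.5 than at E16.5 by 0.71 ± 0.15 (adjusted p = 0.00178). In LEC the steps were -0.17 ± 0.15 (adjusted p = 0.540) and 1.17 ± 0.15 (adjusted p = 1.42e-05). The changes from E14.5 to E18.5 were 1.00 ± 0.15 (adjusted p = 2.62e-05) in LEC and 1.57 ± 0.15 (adjusted p = 2.61e-07) in BEC, and they differed by -0.57 ± 0.21 (adjusted p = 0.118), which did not pass. All calls of Apcdd1 against BEC held in every alternative. The mural list, with 10 of 10 genes lower in LEC at E18.5, and 5 lower and 1 higher at E14.5, differed in the same direction. On LEC arrays the list of 7 BEC markers was at 6.34 to 7.004 at E14.5, 7.12 to 7.35 at E16.5 and 7.43 to 7.91 at E18.5. Within it, Notch4 alone passed as lower with age in LEC (-0.34 ± 0.12, adjusted p = 0.0321). The part of both lists in the Apcdd1 result was not tested.

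Nkd1, an intracellular inhibitor that is also a target of the pathway, was 7.37, 6.95 and 7.38 (E14.5), 6.53, 6.56 and 6.49 (E16.5), and 6.05, 6.005 and 6.17 (E18.5) on LEC arrays. On BEC arrays it was 6.39, 6.34 and 6.51 (E14.5), 5.61, 5.47 and 5.87 (E16.5), and 5.67, 5.78 and 5.81 (E18.5). LEC arrays were above BEC arrays at each age without overlap, and E18.5 arrays were below E14.5 arrays in both cell types. The difference was 0.81 ± 0.12 (adjusted p = 5.06e-05) at E14.5, 0.87 ± 0.12 (adjusted p = 1.38e-05) at E16.5 and 0.32 ± 0.12 (adjusted p = 0.0549) at E18.5. Nkd1 fell between E14.5 and E18.5 in LEC (-1.16 ± 0.12, adjusted p = 4.37e-07) as well as BEC (-0.66 ± 0.12, adjusted p = 0.000335). The LEC marker list fell on the same BEC arrays (8.09 to 8.44 at E14.5, 6.38 to 6.69 at E18.5). On LEC arrays that list was at 10.84 to 10.93 at E14.5 and 11.22 to 11.45 at E18.5. The list of 5 erythroid genes was at 6.31 to 6.43 and 4.84 to 4.97 on LEC arrays at these ages. On BEC arrays it was at 6.73 to 7.11 and 5.20 to 5.61. Hbb-y, 1 of the 5, changed by -5.22 ± 0.27 in LEC and -6.24 ± 0.27 in BEC. The part of both lists in the Nkd1 result was not tested.

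The related Nkd2 was lower in LEC, with means of 4.65 ± 0.17, 4.68 ± 0.14 and 4.51 ± 0.21 in LEC, below the bound in part, against 5.46 ± 0.15, 5.25 ± 0.06 and 5.07 ± 0.06 in BEC. The differences in order of age were -0.81 ± 0.12, -0.56 ± 0.12 and -0.56 ± 0.12 (adjusted p = 5.45e-05, 0.00152 and 0.00153). It fell with age in BEC (-0.39 ± 0.12, adjusted p = 0.0201), a call lost without BEC E14.5 replicates 1 or 3 or BEC E18.5 replicates 2 or 3 (adjusted p of 0.0518 to 0.0989). Axin2, a scaffold of the destruction complex and a standard readout of beta-catenin signalling, averaged 5.72 ± 0.19, 5.39 ± 0.25 and 5.54 ± 0.15 in LEC, against 5.93 ± 0.15, 5.68 ± 0.11 and 6.45 ± 0.08 in BEC. At E18.5 it was lower in LEC (-0.91 ± 0.13, adjusted p = 2.32e-05), after differences of -0.20 ± 0.13 (adjusted p = 0.400) at E14.5 and -0.29 ± 0.13 (adjusted p = 0.127) at E16.5. Without the E18.5 arrays the difference over the remaining ages was -0.25, adjusted p = 0.0617.

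Axin2 was higher at E18.5 than at E14.5 in BEC (0.52 ± 0.13, adjusted p = 0.00536), with -0.19 ± 0.13 (adjusted p = 0.285) in LEC and a difference between these of -0.71 ± 0.19 (adjusted p = 0.0227). That call was lost without LEC E14.5 replicate 1, LEC E18.5 replicate 2, BEC E14.5 replicate 1 or BEC E14.5 replicate 2, with adjusted p values of 0.0563 to 0.0731, and with array weights (adjusted p = 0.0681). In BEC the steps were -0.25 ± 0.13 (adjusted p = 0.249) to E16.5 and 0.77 ± 0.13 (adjusted p = 0.000365) from E16.5 to E18.5. On BEC arrays the LEC marker list was at 8.09 to 8.44, 7.001 to 7.10 and 6.38 to 6.69 in order of age. The mural list was at 5.76 to 5.85, 6.56 to 6.71 and 7.75 to 7.85 there. The keratinocyte list was at 5.22 to 5.34, 4.93 to 5.20 and 5.77 to 6.22. The part of these lists in the Axin2 result was not tested. Axin1, the constitutive scaffold of the complex, did not pass between LEC and BEC (0.15 ± 0.07, adjusted p = 0.101 over the 3 ages) and fell with age in LEC (-0.52 ± 0.12, adjusted p = 0.00175).

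All 3 TCF/LEF factors were lower in LEC over the 3 ages. So was the pan-endothelial list, at each age, and its part in these results was not tested. Lef1, a beta-catenin partner and a target of the pathway, averaged 5.33 ± 0.03, 4.92 ± 0.27 and 5.78 ± 0.37 in LEC (SD, n = 3), against 6.09 ± 0.08, 5.54 ± 0.20 and 6.44 ± 0.30 in BEC. The difference was -0.75 ± 0.18 (adjusted p = 0.00457), -0.62 ± 0.18 (adjusted p = 0.0132) and -0.66 ± 0.18 (adjusted p = 0.00784) in order of age. The E16.5 call was lost without LEC E16.5 replicate 1 (-0.48, adjusted p = 0.0880) or BEC E16.5 replicate 3 (-0.53, adjusted p = 0.0655), and the E18.5 call without LEC E18.5 replicate 1 (-0.45, adjusted p = 0.0534). Lef1 was higher at E18.5 than at E16.5 by 0.86 ± 0.18 (adjusted p = 0.00112) in LEC and 0.90 ± 0.18 (adjusted p = 0.00107) in BEC.

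Tcf7l2 averaged 7.25 ± 0.18, 7.54 ± 0.03 and 8.03 ± 0.08 in LEC, against 7.73 ± 0.11, 8.04 ± 0.03 and 8.41 ± 0.11 in BEC, with no overlap at any age. The difference over the 3 ages was -0.46 ± 0.06 (adjusted p = 3.27e-06). Its E18.5 difference of -0.39 ± 0.10 (adjusted p = 0.00709) did not pass in a fit of the 6 E18.5 arrays alone (adjusted p = 0.0881) or with array weights (adjusted p = 0.0547). Tcf7l2 was higher at E18.5 than at E14.5 by 0.78 ± 0.10 (adjusted p = 5.93e-06) in LEC and 0.69 ± 0.10 (adjusted p = 4.19e-05) in BEC. Tcf7l1, a factor that mostly represses targets, was lower in LEC over the 3 ages (-0.39 ± 0.07, adjusted p = 0.000185), and its age changes were 0.51 ± 0.12 (adjusted p = 0.00261) in LEC and 0.65 ± 0.12 (adjusted p = 0.000498) in BEC. At E14.5 it did not pass (-0.32 ± 0.12, adjusted p = 0.0997), its E16.5 call was lost without LEC E16.5 replicate 1 or BEC E16.5 replicates 1 or 2 (adjusted p of 0.0532 to 0.111), and its E18.5 call without BEC E18.5 replicate 2 (-0.34, adjusted p = 0.0591). The age changes of none of the 3 factors were shown to differ between LEC and BEC (adjusted p = 0.885 for Lef1, 0.780 for Tcf7l2 and 0.733 for Tcf7l1).

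The other genes of the pathway were taken from lists of secretion factors, co-receptors and receptor turnover, Norrin and WNT7 receptor parts, signal transduction, nuclear cofactors, and genes that respond to WNT in brain endothelium. Of 57 measured, 15 were higher and 17 lower in LEC over the 3 ages (56.1%, against 37.1% of all genes). By age, 5 were higher and 9 lower at E14.5 (24.6%, against 16.5% of all genes), 6 and 13 at E16.5 (33.3%, against 25.2%), then 13 of each at E18.5 (45.6%, against 30.4%). Between E18.5 and E14.5, 15 were higher and 12 lower in LEC (47.4%, against 40.9%), and 12 and 6 in BEC (31.6%, against 30.6%, near the background). The changes differed for 11, with 8 more positive and 3 more negative in LEC (19.3%, against 8.85%). These lists were chosen with earlier results of these data known. The shares of all genes also include the 24.7% of genes that were dim in all 6 groups. The shares are therefore no test of an excess among pathway genes. By list, over the 3 ages, 4 of 9 secretion genes were higher and 2 lower, 2 of 17 transduction genes were higher and 7 lower, 2 of 9 nuclear cofactors were higher and 2 lower, and 2 of 7 brain endothelial response genes were higher and 3 lower.

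On the side of R-spondin reception, Lgr4, a receptor of R-spondins, was higher in LEC over the 3 ages (1.92 ± 0.08, adjusted p = 1.25e-13), and in order of age by 2.14 ± 0.13, 1.74 ± 0.13 and 1.89 ± 0.13. Lgr5, a related receptor, was higher at E18.5 than at E14.5 by 1.45 ± 0.13 (adjusted p = 4.87e-08) in LEC and 0.64 ± 0.13 (adjusted p = 0.000732) in BEC, with E14.5 means that were dim in both cell types, so that the sizes are measured against background. Of the 11 genes of the list of co-receptors and receptor turnover, 4 were higher (Lgr4, Lgr5, Lgr6 and Rnf43) and 2 lower (Ryk and Ptk7) in LEC. Rnf43, a ligase that removes Frizzled receptors, was named after its values were seen. It was higher in LEC over the 3 ages by 0.86 ± 0.07 (adjusted p = 1.67e-09). In the list of 4 Norrin and WNT7 receptor parts, Tspan12, an Fzd4 partner named after its values were seen, was lower in LEC over the 3 ages (-0.53 ± 0.08, adjusted p = 1.80e-05). Its difference was -0.19 ± 0.14 (adjusted p = 0.470) at E14.5, -0.70 ± 0.14 (adjusted p = 0.000604) at E16.5 and -0.71 ± 0.14 (adjusted p = 0.000492) at E18.5. Ndp, which encodes Norrin, was dim in all 6 groups and differed in its age changes by 1.33 ± 0.20 (adjusted p = 0.000243).

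Wls, which carries WNT ligands to the cell surface, was higher at E18.5 than at E14.5 in LEC (1.33 ± 0.10, adjusted p = 1.01e-08), and its change differed from that in BEC (0.55 ± 0.14, adjusted p = 0.0207). The extracellular regulators Sostdc1 and Cthrc1 were higher with age in LEC by 2.67 ± 0.27 (adjusted p = 2.16e-07) and 2.04 ± 0.13 (adjusted p = 1.15e-09), and their age changes differed by 1.45 ± 0.38 (adjusted p = 0.0188) and 1.52 ± 0.19 (adjusted p = 2.64e-05). Both were also higher with age in BEC, Sostdc1 by 1.22 ± 0.27 (adjusted p = 0.00157) and Cthrc1 by 0.52 ± 0.13 (adjusted p = 0.00475). The mean of Sostdc1 in LEC at E14.5 was dim, so that its change in LEC and the difference of its changes are measured against background. The keratinocyte markers described above were higher at E18.5 on the same arrays, and their part in these results was not tested.

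Inside the cell, Ctnnbip1, an inhibitor that binds beta-catenin, was lower in LEC over the 3 ages (-1.61 ± 0.06, adjusted p = 6.47e-14). Among genes known to respond to WNT in brain endothelium, Sox17, Slc2a1 (a glucose transporter) and Plvap (a fenestral diaphragm protein that WNT lowers there) were lower in LEC, with differences of -2.45 ± 0.09 (adjusted p = 7.69e-14), -1.92 ± 0.08 (adjusted p = 5.45e-13) and -2.75 ± 0.10 (adjusted p = 1.60e-14). The other called genes of that list, named after their values were seen, were higher in LEC, with 0.81 ± 0.17 (adjusted p = 0.000605) for Mfsd2a, a lipid transporter, and 0.21 ± 0.08 (adjusted p = 0.0368) for Cldn5, a tight junction protein. Sox17 fell with age in LEC (-1.16 ± 0.16, adjusted p = 1.35e-05) and was higher with age in BEC (0.96 ± 0.16, adjusted p = 0.000163), with a difference of -2.11 ± 0.23 (adjusted p = 8.46e-06).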

How the data were processed

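The authors' deposited values are log2 expression values, computed by RMA (oligo 1.54.1) according to the submitters' processing notes. The sources used here do not say whether all 18 arrays were normalized together. Of 35556 rows, 23410 were listed in the platform annotation, 21789 of them with 1 symbol, 1621 with several (not used) and 12146 not listed. The brightest row was kept for the 999 genes with more than 1 row, which among the 52 pathway genes was Wnt4 alone.

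Group means of all 18 arrays were fitted by limma (3.58.1, R 4.3.3; lmFit and eBayes without trend, 12 residual and 6.11 prior degrees of freedom), and two-sided p values were adjusted by Benjamini-Hochberg over 19938 genes per contrast, with 11 contrasts. The fit was tested on simulated data. Alternatives were other scalings (common median, quantile), variance settings (intensity trend with robust fit, no moderation, array weights), leaving out dim genes, the mean of a gene's rows, only the compared groups, a replicate block, and leaving out the E18.5 arrays or single arrays. Replicate numbers were not treated as pairs: deviations of same-numbered LEC and BEC arrays correlated at -0.11 to 0.13, over 0.1 in 3 of 9 pairs. Array values are given for genes that passed with a size of at least 1 in LEC against BEC over the 3 ages, in an age change from E14.5 to E18.5 or in the difference of these, and were not dim. Other pathway genes are named if they passed with such a size. The members and the lists were chosen with earlier results of these data known.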

Additional observations from a re-analysis of the deposited data

Results flagged for a closer look

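For 6 of the 52 genes the change from E14.5 to E18.5 differed between LEC and BEC, by limma's test of the difference itself. Dkk3 changed by 1.97 ± 0.19 in LEC and 0.17 ± 0.19 in BEC, a difference of 1.79 ± 0.27 (adjusted p = 0.000233). For Fzd6 the changes were 1.59 ± 0.12 and 0.61 ± 0.12 in LEC and BEC, a difference of 0.98 ± 0.17 (adjusted p = 0.000653). Sfrp1 had 0.13 ± 0.13 in LEC and -0.64 ± 0.13 in BEC, a difference of 0.78 ± 0.19 (adjusted p = 0.0126). Rspo3 had -0.98 ± 0.21 in LEC and 0.08 ± 0.21 in BEC, a difference of -1.06 ± 0.29 (adjusted p = 0.0292). The difference was -0.71 ± 0.19 (adjusted p = 0.0227) for Axin2, from -0.19 ± 0.13 in LEC and 0.52 ± 0.13 in BEC. For Fzd4 it was -0.70 ± 0.16 (adjusted p = 0.00843), from -0.12 ± 0.11 in LEC and 0.58 ± 0.11 in BEC. Leaving out single arrays ended the call for Rspo3 and Axin2, as given above, and not for Dkk3, Fzd6, Sfrp1 or Fzd4.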

How the results depend on the processing

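Of 145 results in which a pathway gene passed the test, 93 kept the call in all alternatives that apply to them, 52 lost it in at least 1, and 0 changed direction. The alternatives were 29 settings, 18 of which leave out 1 array. With array weights, 10 genes in place of 16 passed for LEC against BEC at E18.5, 12 in place of 7 for E16.5 against E14.5 in LEC, and 13 in place of 7 for that step in BEC, for which 12 passed without the E18.5 arrays. The cause of these moves was not tested.

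When 1 array was left out, between 17 and 21 genes passed over the 3 ages, 11 to 12 at E14.5, 11 to 18 at E16.5 (11 without LEC E16.5 replicate 1) and 13 to 18 at E18.5. For E18.5 against E14.5 it was 13 to 19 in LEC and 12 to 16 in BEC, and 4 to 7 for the difference. For E16.5 against E14.5 it was 5 to 8 in LEC and 4 to 10 in BEC (4 without BEC E14.5 replicate 2 or BEC E16.5 replicate 2), and for E18.5 against E16.5 13 to 16 in LEC and 11 to 19 in BEC. With the replicate number as a replicate block, random (consensus correlation 0.0151) or fixed, 19 genes passed over the 3 ages, and 17 and 15 at E18.5 in place of 16. With a fixed block, 14 in place of 17 passed at E16.5, where Lrp6, Tcf7l1 and Wnt7a lost the call (adjusted p = 0.0551, 0.0732 and 0.0686), and Fzd3 and Sfrp4 lost it at E18.5 (adjusted p = 0.0626 and 0.0558). The block moved no count of calls by over 1.5 times, and a fixed block within age cannot be set for comparisons between ages. Arrays give no read depth, and genes near 4.57 have little signal over background.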
